A study of Mus musculus and Rattus norvegicus with 30 samples.

Results

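The pacemaker channel genes Hcn2, Hcn3 and Hcn4 were followed in dorsal root ganglion (DRG), the tissue that holds the cell bodies of sensory neurons, after peripheral nerve injury. They were chosen by gene symbol, and each matched 1 row of both count tables, so that 3 of 54315 mouse features and 3 of 39281 rat features were taken. All 3 passed the filter on low counts in both species. The remaining gene of the family was not analysed here. The mouse libraries came from the L3 and L4 DRG of male and female mice of 2 inbred strains, 28 days after spared nerve injury (SNI), which severs the common peroneal and sural nerves and leaves the tibial nerve whole, or after sham surgery, in which the nerve was only exposed. Each mouse library was 1 animal, with 6 sham and 4 injured libraries in BALB/c and 5 of each kind in B10.D2. The rat libraries came from the L5 DRG of male Wistar rats 21 days after spinal nerve transection (SNT), in which the left L5 spinal nerve is tied and cut, or after sham surgery, with 4 libraries in each group and 3 animals pooled in each library. The labels name no transgene or drug for any group.

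HCN channels open when the membrane becomes more negative than rest and let sodium and potassium ions through, which brings the cell back towards firing threshold. Cyclic AMP binds their intracellular part directly and makes them open more readily, an action that is strong in HCN2 and HCN4 and weak in HCN3. HCN4 is best known as the main pacemaker channel of the sinoatrial node of the heart, and HCN2 is known in sensory neurons for its part in repetitive firing and pain after nerve injury.

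In mouse build mm10, Hcn2 (ENSMUSG00000020331) lies at chr10:79716634-79736108 on the forward strand, Hcn3 (ENSMUSG00000028051) at chr3:89146074-89160196 on the reverse strand, and Hcn4 (ENSMUSG00000032338) at chr9:58823412-58863175 on the forward strand. The rat identifiers were ENSRNOG00000008831 for Hcn2, ENSRNOG00000020444 for Hcn3 and ENSRNOG00000009450 for Hcn4. Each mouse gene has 8 coding exons, with 2589 coding bases in Hcn2, 2337 in Hcn3 and 3603 in Hcn4, and 5 of the 8, the coding exons 3 to 7, have the same length in all 3 genes. The third coding exon, of 162 bases, is shown because it shows how alike the members are and because 1 deposited splice junction leaves it out of Hcn2. It lies at chr10:79726147-79726308 in Hcn2, chr3:89151425-89151586 in Hcn3 and chr9:58853383-58853544 in Hcn4, and capitals mark the bases that are not the same in all 3 genes.
Hcn2: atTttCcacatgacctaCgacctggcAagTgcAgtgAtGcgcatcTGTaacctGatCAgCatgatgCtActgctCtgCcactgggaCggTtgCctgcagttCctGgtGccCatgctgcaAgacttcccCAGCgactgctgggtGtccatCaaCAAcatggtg
Hcn3: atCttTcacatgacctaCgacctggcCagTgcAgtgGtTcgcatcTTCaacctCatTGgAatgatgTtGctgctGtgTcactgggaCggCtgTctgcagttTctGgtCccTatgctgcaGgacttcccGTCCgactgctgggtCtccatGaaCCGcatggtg
Hcn4: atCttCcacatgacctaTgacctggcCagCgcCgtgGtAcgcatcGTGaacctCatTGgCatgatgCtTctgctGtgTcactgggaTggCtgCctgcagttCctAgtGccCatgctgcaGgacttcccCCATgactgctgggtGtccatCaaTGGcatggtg
The 3 exons shared 126 of 162 bases (77.8%). Identity was 82.7% between Hcn2 and Hcn3, 84.0% between Hcn2 and Hcn4, and 85.2% between Hcn3 and Hcn4.

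The deposited mouse splice junctions, a list without read counts, held 7 of the 8 annotated introns of Hcn2, 8 of 9 of Hcn3 and 7 of 7 of Hcn4. Hcn2 had 1 further junction on its own strand, chr10:79724812-79728892, which joined the second to the fourth coding exon and skipped the exon printed above. That exon is coding throughout, and its length is a multiple of 3 bases. Hcn3 had 1 further junction, chr3:89151587-89152741, which shortened the second coding exon by 111 bases, also a multiple of 3. Another junction on the opposite strand, chr10:79716515-79716815, crossed the annotated start of Hcn2. How often any of these junctions was used could not be read from the list.

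Neighbouring genes were few. Within 10 kb of Hcn2 lay Bsg (basigin), 4665 bases away, and Polrmt (the mitochondrial RNA polymerase), 15 bases beyond the end of Hcn2 and on the opposite strand. Within 10 kb of Hcn3 lay Clk2, a kinase of splicing factors, 4599 bases away, and Pklr (pyruvate kinase of liver and red cells), which overlaps 711 exon bases of Hcn3 on the opposite strand. Pklr averaged 0.176 CPM (counts scaled to a common library total) over the mouse libraries. None of these 4 neighbours passed the test after SNI in either strain (lowest adjusted p, 0.169 for Clk2 in BALB/c, edgeR). Hcn4 had no annotated gene within 10 kb, and none of the 3 had an LncRNA assembled by the study within that distance.

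Library totals were 29989963 to 41881331 counts in mouse and 11954612 to 17887909 in rat, where 2 libraries stood apart. On the first principal component of the rat libraries, which held 71.5% of the variance, sham library 4 scored -6.33 and SNT library 1 scored 1.09, while the remaining sham libraries scored -48.7 to -35.7 and the remaining SNT libraries 30.6 to 49.9. Rat results of the members are therefore given with and without this pair. Most other rat results, those of single list genes and markers among them, are given with all libraries only. Markers of neurons were present in every mouse library (6 genes, summed level 5580 to 6630 CPM). In rat, Elavl4 and Prph summed to 3590 to 5620 CPM, whereas Rbfox3, Tubb3 and Uchl1 were listed at 0 in all libraries and Snap25 had no matching row. Injury markers such as Atf3, a transcription factor induced by axon damage, rose with the labels: 9 of 9 tested in BALB/c, 8 of 9 in B10.D2 and 6 of 7 in rat were higher. Of all features, 9.69% were called in either direction in BALB/c, 4.58% in B10.D2 and 27.4% in rat. The rat sham libraries spread widely in the injury markers. The 8 with counts in rat summed to 353 to 953 CPM in sham (mean 513) and 1250 to 1820 CPM in SNT.

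All 3 channel genes were expressed in sham DRG, and in mouse Hcn2 was the highest per kilobase of exon. Per kilobase of exon, the mean level in BALB/c sham was 9.23 ± 1.01 CPM per kb (SD, n = 6) for Hcn2, 3.56 ± 0.569 for Hcn3 and 2.49 ± 0.484 for Hcn4. In B10.D2 sham the same levels were 9.43 ± 1.66 CPM per kb (SD, n = 5), 4.0 ± 0.284 and 2.06 ± 0.412. The order Hcn2, Hcn3, Hcn4 held in 19 of 20 mouse libraries, and in BALB/c SNI library 65 Hcn4 was above Hcn3. On exon length, Hcn2 lay above both other members in every mouse library. Hcn3 and Hcn4 overlapped in range within both BALB/c groups (3.05 to 4.57 against 2.07 to 3.19 CPM per kb in sham) and did not overlap within the B10.D2 groups (3.58 to 4.30 against 1.44 to 2.46 in sham). The order of Hcn2 and Hcn3 depended on the length used. The mean length of annotated transcripts is 1518 bases for the 4 transcripts of Hcn3, against 4154 bases of exon in all. With it, Hcn3 came to 9.75 CPM per kb in BALB/c sham and Hcn2 to 9.39. Hcn3 was also above Hcn2 in BALB/c SNI (10.4 against 7.3), B10.D2 sham (10.9 against 9.59) and B10.D2 SNI (12.3 against 7.74). No gene lengths were at hand for rat, so levels of different rat genes were not ranked.

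**Figure D1:**
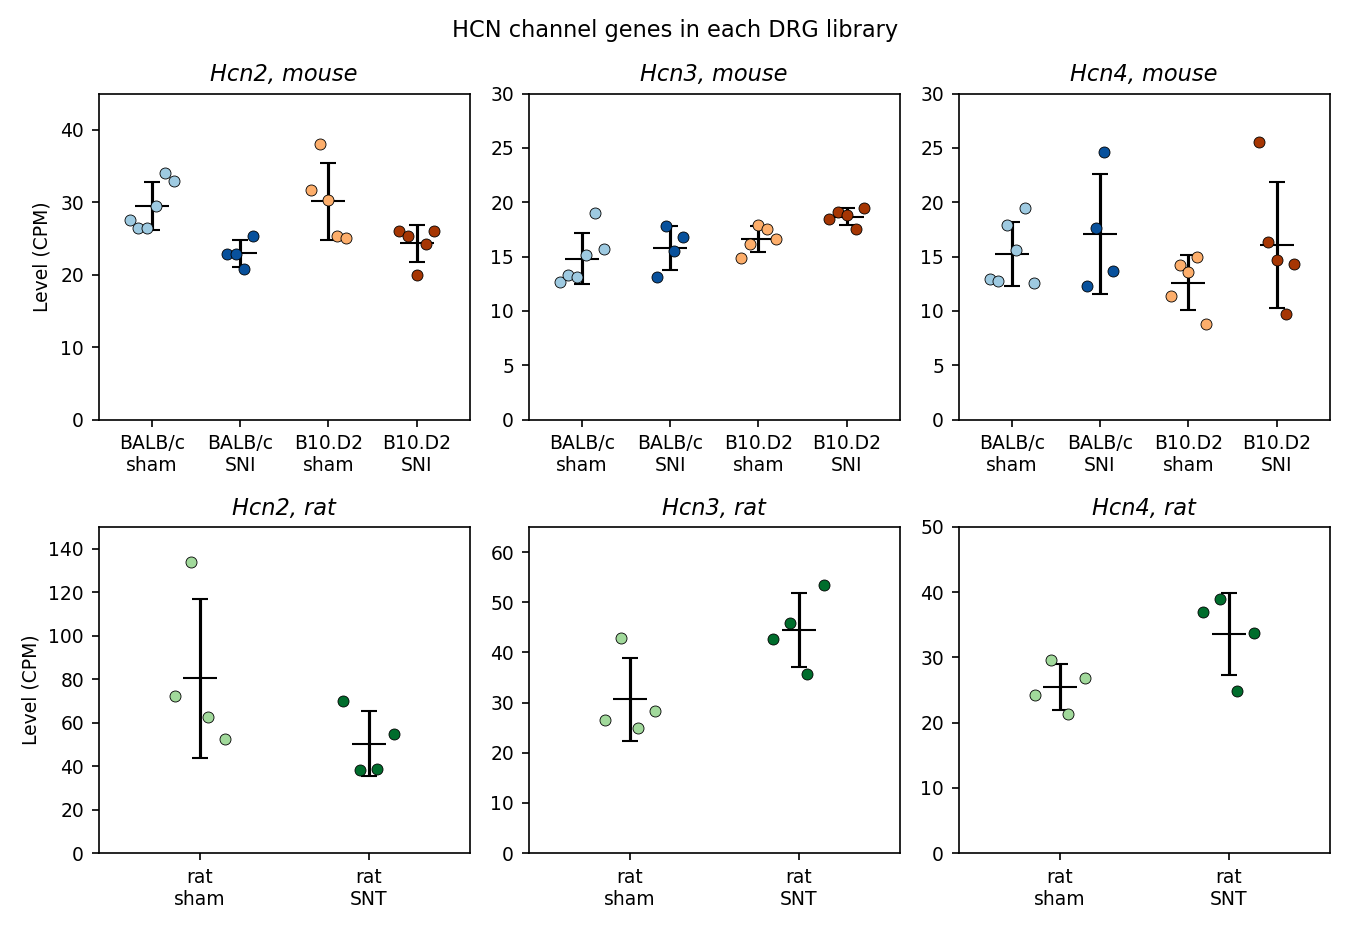
Level of Hcn2, Hcn3 and Hcn4 (CPM, vertical axes from 0 with a scale of their own) in each mouse library (upper row) and rat library (lower row), with the group mean and SD as bars. Hcn2 in BALB/c SNI lies at 20.8 to 25.4 CPM, under all BALB/c sham libraries, while the groups of Hcn3 and Hcn4 overlap in both strains and in rat.

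Hcn2 fell after SNI in BALB/c. The 6 sham libraries lay between 26.5 and 34 CPM with a median of 28.5. The 4 SNI libraries read 22.8, 22.8, 20.8 and 25.4 CPM. Every SNI library was thus below every sham library, which held for 4.31% of all features tested. The log2 fold change was -0.36 (SE 0.11; 95% interval -0.58 to -0.14; adjusted p = 0.0338, edgeR), a fall to 0.778 of the sham level, where 9.69% of features were called in either direction. The call was lost when sham library 56, 57 or 71 or SNI library 49, 64 or 65 was left out (log2 fold change -0.38 to -0.31, adjusted p 0.0606 to 0.0956).

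In B10.D2, Hcn2 read 31.7, 38.1, 30.3, 25.4 and 25.1 CPM in sham and 26.0, 25.3, 20, 24.3 and 26.0 CPM in SNI. The groups overlapped, since 2 of the 5 sham libraries were as low as the SNI libraries. The log2 fold change of -0.29 (SE 0.10; 95% interval -0.51 to -0.07) did not pass (adjusted p = 0.131, edgeR), where 4.58% of features were called. The difference between the strains' changes was 0.07 (95% interval -0.24 to 0.38; adjusted p = 1.0), where 0.0243% of features were called. An injury effect averaged over both strains, an alternative chosen after the data were seen, gave -0.33 for Hcn2 (SE 0.07; adjusted p = 0.00385), where 16.5% were called.

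In rat, Hcn2 read 72.3, 134, 62.8 and 52.7 CPM in the sham libraries 1 to 4 and 69.8, 38.3, 38.5 and 54.9 CPM in the SNT libraries 1 to 4. The groups overlapped, and the 2 libraries that came closest to the other group were those that stood apart on the first component. The log2 fold change was -0.68 (SE 0.30; 95% interval -1.34 to -0.01) and did not pass (adjusted p = 0.113, edgeR), where 27.4% of features were called. Without that pair it was -1.03 (adjusted p = 0.0124), but the pair was left out for lying nearest the other group, which widens the gap between groups, and 43.9% of all features were then called. The size of the difference also rested on sham library 2, without which it was -0.29 (adjusted p = 0.357). Leaving out sham library 4 or SNT library 1 alone, of the same pair, gave -0.83 and -0.87, with adjusted p of 0.0478 and 0.0476.

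Some markers of large myelinated sensory neurons were lower after injury, and Ntrk2 of the same list was 0.09 in BALB/c and 0.14 in B10.D2 on the log2 scale, without passing. After SNI in BALB/c, Nefh, Pvalb, Cntnap2 and Spp1, 4 of the 6, were lower. The summed level of all 6 was 2750 to 3150 CPM in sham and 1940 to 2340 CPM in SNI. In B10.D2, 3 of the 6 were lower (Nefh, Pvalb and Cntnap2), and all 6 summed to 2200 to 2840 CPM in sham and 1800 to 2140 CPM in SNI. In rat, Pvalb and Ntrk3 were lower, the other 4 of the list being at 0 or without a row. Of the small neuron markers tested in rat, 4 of 6 were lower (Mrgprd, P2rx3, Scn10a and Scn11a), against 0 of 7 in either mouse strain. Beside these counts of markers, 27.4% of all features were called in rat, 9.69% in BALB/c and 4.58% in B10.D2, in either direction. None of the defining markers of large or small neurons was at 0 in mouse. The part of these cell populations in the Hcn2 values was not tested, and in bulk tissue fewer cells of a type cannot be told apart from less RNA per cell. Among macrophage markers, 3 of 6 passed as higher after SNI in BALB/c (summed level of all 6, 43.6 to 109 CPM in sham and 85.7 to 141 in SNI). For B10.D2, 0 of 6 passed, and the summed level of the 6 markers was 92.5 to 107 CPM in sham and 109 to 181 in SNI. Their median log2 fold change was 0.559 for BALB/c against 0.455 for B10.D2. The strain by injury interaction was called for 0 of the 6. Of the 3 macrophage markers tested in rat, 1 passed as higher. Of Schwann cell, endothelial, fibroblast and muscle markers, only Cldn5 and Lum in BALB/c, Lum in B10.D2, and Mag and Lum in rat were called, all higher.

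Hcn3 did not pass the test after injury in either strain or in rat. In BALB/c sham it lay between 12.7 and 19.0 CPM with a median of 14.2, and in SNI it read 13.1, 17.8, 15.5 and 16.8 CPM. In B10.D2 it read 14.9, 16.2, 17.9, 17.5 and 16.6 CPM in sham and 18.5, 19.1, 18.8, 17.5 and 19.5 CPM in SNI. The BALB/c groups overlapped widely, and the B10.D2 groups only between 17.5 and 17.9 CPM. The log2 fold changes were 0.09 in BALB/c (95% interval -0.10 to 0.28; adjusted p = 0.593) and 0.15 in B10.D2 (-0.04 to 0.33; adjusted p = 0.449, edgeR), and the strains' changes differed by 0.05 (-0.22 to 0.32).

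In rat, Hcn3 read 26.5, 42.9, 24.9 and 28.3 CPM in sham and 42.7, 45.9, 35.7 and 53.4 CPM in SNT. Sham library 2 lay among the SNT libraries and the other 3 sham libraries lay below all of them. The log2 fold change was 0.53 (SE 0.19; 95% interval 0.11 to 0.95; adjusted p = 0.0595, edgeR). It passed without sham library 2 (0.76, adjusted p = 0.032) and with DESeq2 (0.54, adjusted p = 0.047), and without both libraries that stood apart it was 0.52 (adjusted p = 0.0852).

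Hcn4 varied most among mice of 1 group and did not pass the test after injury. In BALB/c sham it lay between 12.6 and 19.5 CPM with a median of 14.2, and in SNI it read 12.3, 17.6, 24.6 and 13.7 CPM. In B10.D2 it read 11.4, 14.2, 13.6, 15.0 and 8.84 CPM in sham and 25.5, 16.3, 14.7, 9.71 and 14.3 CPM in SNI. Both strains' groups overlapped, and 1 SNI library in each strain, both from females, was far above the rest. B10.D2 had 2 females and 3 males in sham and 3 females and 2 males in SNI. The fit held sex, but the CPM values are not adjusted for it. The log2 fold changes were 0.14 in BALB/c (95% interval -0.17 to 0.46; adjusted p = 0.629) and 0.22 in B10.D2 (-0.10 to 0.54; adjusted p = 0.514, edgeR), with a difference between strains of 0.08 (-0.37 to 0.53).

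In rat, Hcn4 read 24.2, 29.6, 21.4 and 26.8 CPM in sham and 37.0, 39.0, 24.8 and 33.8 CPM in SNT. SNT library 3 lay within the sham range and the other 3 lay above it. The log2 fold change was 0.40 (SE 0.16; 95% interval 0.04 to 0.76; adjusted p = 0.0883, edgeR), and without both libraries that stood apart it was 0.38 (adjusted p = 0.132). Without SNT library 3 it was 0.54 and passed (adjusted p = 0.0398).

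**Figure D2:**
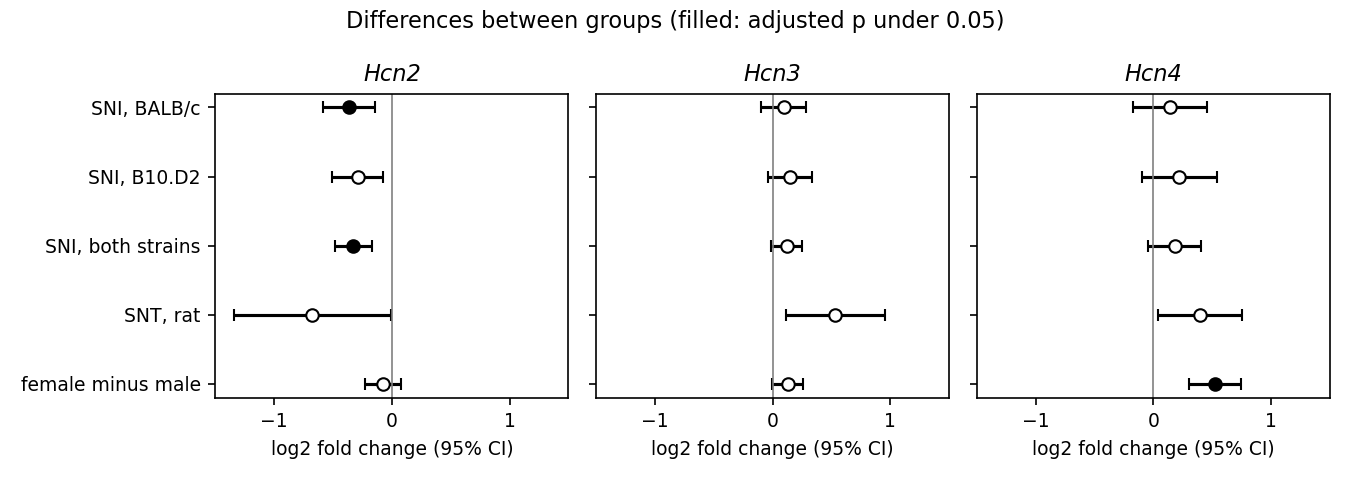
Log2 fold change (horizontal axis, with its 95% interval as the bar) of Hcn2, Hcn3 and Hcn4 after SNI in each mouse strain and in both together, after SNT in rat, and between female and male mice. Filled points passed an adjusted p of 0.05: Hcn2 in BALB/c (-0.36) and in both strains together (-0.33), and Hcn4 between the sexes (0.52).

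Since the log2 fold changes of Hcn2 and Hcn3 had opposite signs in all 3 comparisons, their ratio within each library was taken as a description, chosen after their values were seen and with no test. In BALB/c the count of Hcn2 was 1.79 to 2.17 times that of Hcn3 in sham and 1.28 to 1.74 times in SNI. In B10.D2 the ratio was 1.45 to 2.35 in sham and 1.06 to 1.41 in SNI. In rat it was 1.86 to 3.13 in sham and 0.835 to 1.63 in SNT. The groups did not overlap in any of the 3 comparisons, including the 2 rat libraries that stood apart (1.86 in sham 4 and 1.63 in SNT 1). As background, the ratio of a feature to Hcn3 was below all sham libraries in every injured library for 1.47% of features in BALB/c, 7.33% in B10.D2 and 31.2% in rat, so that in rat such a ratio was common.

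**Figure D3:**
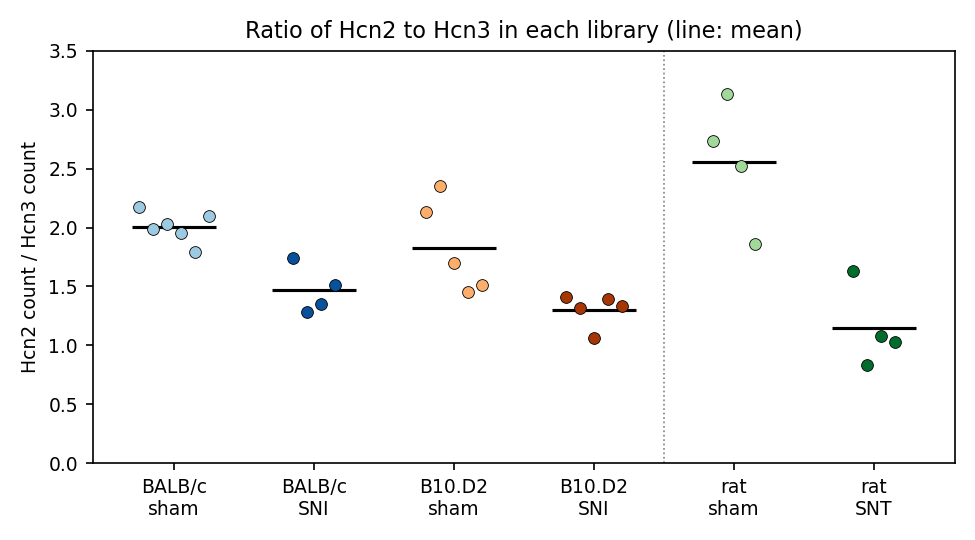
Count of Hcn2 divided by the count of Hcn3 (vertical axis, no unit) in each library of the 6 groups, with the group mean as a line and a dotted line between mouse and rat. Injured libraries lie below sham libraries in BALB/c (1.28 to 1.74 against 1.79 to 2.17), B10.D2 and rat.

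As a share of the summed level of the 3 genes per kilobase, Hcn2 made up 60.4% ± 2.52 (SD, n = 6) in BALB/c sham and 52.4% ± 5.58 (n = 4) in SNI. In B10.D2 it made up 60.6% ± 4.57 (n = 5) and 51.7% ± 3.77 (n = 5). The B10.D2 ranges overlapped (54.4 to 65.7% against 47.4 to 56.7%), as did the BALB/c ranges, which met between 57.7 and 58%. Hcn3 took 23.2% in BALB/c sham and 27.6% in SNI, and Hcn4 16.3% and 20.1%. These shares rest on exon length: with mean transcript length, Hcn2 made up 43.5% in BALB/c sham and 35.8% in SNI and Hcn3 45% and 50.6%, and in B10.D2 Hcn2 made up 42.3% and 34.1%.

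Between the strains, none of the 3 genes passed the test with all libraries. In sham mice, B10.D2 minus BALB/c was 0.02 on the log2 scale for Hcn2 (95% interval -0.19 to 0.23), 0.18 for Hcn3 (0.00 to 0.36; adjusted p = 0.155) and -0.21 for Hcn4 (-0.51 to 0.09; adjusted p = 0.359, edgeR), where 21.6% of features were called. In SNI mice the difference was 0.09 for Hcn2, 0.23 for Hcn3 (95% interval 0.03 to 0.43; adjusted p = 0.0933) and -0.13 for Hcn4, where 20.8% were called. For Hcn3 both passed without BALB/c sham library 57, the highest of its group (0.25 in sham, adjusted p = 0.0248, and 0.23 in SNI, adjusted p = 0.0451).

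Hcn4 was higher in female than in male mice. The 10 female libraries lay between 13.6 and 25.5 CPM with a median of 17.0, and the 10 male libraries between 8.84 and 14.3 CPM with a median of 12.7. The sexes overlapped only between 13.6 and 14.3 CPM, and within both BALB/c groups and within B10.D2 SNI every female was above every male. That pattern, in at least 3 of the 4 groups, held for 1.61% of features. The log2 difference was 0.52 (SE 0.11; 95% interval 0.30 to 0.75; adjusted p = 0.0422, edgeR), or 1.44-fold, where 0.243% of features were called. Leaving out single libraries in turn, the call was lost in 12 of 20 fits (0.47 to 0.53, adjusted p 0.0514 to 0.117; B10.D2 SNI library 89 gave the highest p). It was also lost in sham libraries alone (0.40, adjusted p = 0.631) and in SNI libraries alone (0.68, adjusted p = 0.125). Of the 55 cell type markers tested, 1 was called between the sexes, the endothelial Cdh5, which was higher in females, and its part in the Hcn4 values was not tested.

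Hcn2 and Hcn3 did not pass between the sexes. Hcn2 had a median of 25.7 CPM in females (20 to 34) and 26.2 CPM in males (22.8 to 38.1). Hcn3 had medians of 17.9 CPM (13.1 to 19.1) and 15.9 CPM (12.7 to 19.5). The log2 differences, female minus male, were -0.08 (95% interval -0.23 to 0.08; adjusted p = 0.747) for Hcn2 and 0.13 (-0.00 to 0.26; adjusted p = 0.443, edgeR) for Hcn3, and the sexes overlapped for both. Rats were male only.

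**Figure D4:**
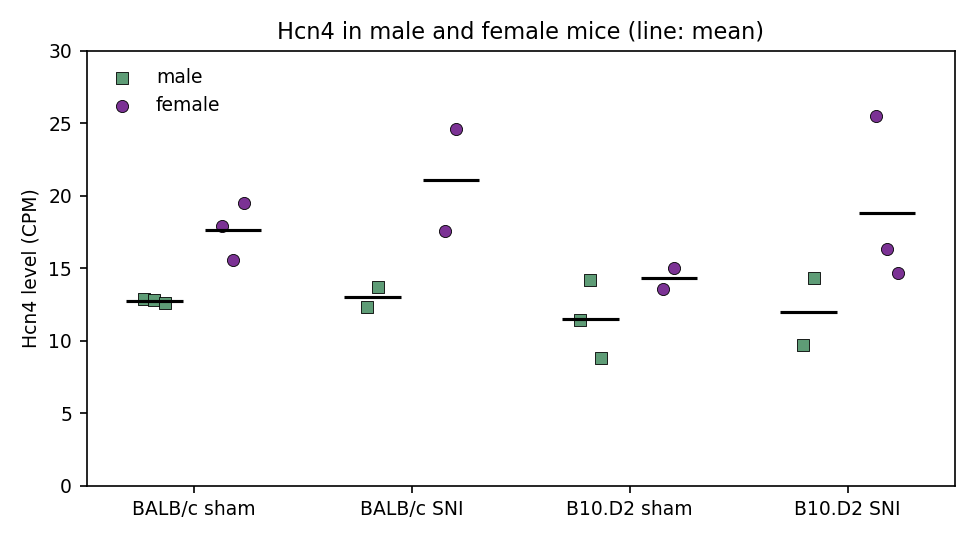
Hcn4 level (CPM, vertical axis) in each mouse library by group, with males as squares, females as circles and the mean of each sex as a line. Females lie above males without overlap in BALB/c sham (15.6 to 19.5 against 12.6 to 12.9 CPM), BALB/c SNI and B10.D2 SNI, and overlap with them in B10.D2 sham.

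Genes that bind HCN proteins or set the level of cyclic AMP were taken as 4 lists of 43 genes. Of the 41 tested in mouse, 2 rose and 4 fell in BALB/c (14.6%, against 9.69% of all features) and 1 rose and 3 fell in B10.D2 (9.76%, against 4.58%). Of the 31 tested in rat, 5 rose and 4 fell (29.0%, against 27.4%), and 16 were called without the 2 libraries that stood apart, where 43.9% of all features were called. With DESeq2, 10 were called in BALB/c and 7 in B10.D2, where it called 12% and 6.77% of all features. In rat, 11 of the 43 were at 0 in all libraries and Pde4c had more than 1 identifier and was left out. No gene of the lists was called for the strain by injury interaction or between the sexes.

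Among partner proteins, Pex5l, which encodes the auxiliary subunit TRIP8b that steers HCN channels to the membrane and blunts their response to cyclic AMP, fell in all 3 comparisons. Its mean level went from 209 ± 7.78 (SD, n = 6) to 182 ± 6.16 CPM (n = 4) in BALB/c, where sham read 202 to 221 and SNI 175 to 187 CPM without overlap. In B10.D2 it went from 204 ± 5.58 to 175 ± 10.5 CPM (n = 5 each; 196 to 210 against 165 to 191, without overlap). In rat it went from 174 ± 30.3 to 89.6 ± 26.5 CPM (n = 4 each; 144 to 208 against 65.7 to 119, without overlap). The log2 fold changes were -0.20 in BALB/c (adjusted p = 0.00196), -0.21 in B10.D2 (0.00229) and -0.96 in rat (0.0137, edgeR). Groups without overlap and lower after injury made up 2.77% of features in B10.D2 and 14.3% in rat.

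Flna, the actin cross-linker filamin A, rose in BALB/c (0.32, adjusted p = 0.0272) and in rat (0.59, adjusted p = 0.0246), and was 0.24 in B10.D2 (adjusted p = 0.151, edgeR). Lrmp, an endoplasmic reticulum protein that lowers the response of HCN4 to cyclic AMP, rose in rat, from 11.1 ± 3.71 to 20.9 ± 2.04 CPM (SD, n = 4 each; log2 fold change 0.91, adjusted p = 0.0149, edgeR). Magi2, a synaptic scaffold, rose in rat as well (0.55, adjusted p = 0.0283). In mouse, Lrmp and Magi2 did not pass in either strain.

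Of the adenylyl cyclases, which make cyclic AMP, 0 of 9 passed in either mouse strain. In rat 1 of 4 tested passed, near the 27.4% of all features, the calcium-inhibited Adcy6, which went from 82.0 ± 14.2 to 142 ± 32.3 CPM (SD, n = 4 each; log2 fold change 0.79, adjusted p = 0.0148, edgeR). The phosphodiesterases break cyclic AMP down. Pde8a, a high-affinity cyclic AMP phosphodiesterase, rose in BALB/c from 14.5 ± 1.47 to 18.9 ± 0.893 CPM (0.38, adjusted p = 0.000859) and in rat (0.92, adjusted p = 0.0141, edgeR), and was 0.17 in B10.D2 (adjusted p = 0.198). Pde1a, which calcium and calmodulin activate, rose in B10.D2 from 22.6 ± 4.59 to 32.7 ± 3.46 CPM (0.52, adjusted p = 0.0274, edgeR) and was 0.30 in BALB/c and -0.38 in rat, without passing there. Pde4d and Pde4b, targets of rolipram, fell in rat (-0.69, adjusted p = 0.0114, and -0.36, adjusted p = 0.046).

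Of the other receivers of cyclic AMP, protein kinase A subunits and the exchange factors Epac, none was called higher. In BALB/c, where 9.69% of all features were called, 3 of 8 fell, the catalytic subunits Prkaca (-0.20, adjusted p = 0.0201) and Prkacb (-0.16, adjusted p = 0.0168) and the regulatory subunit Prkar2b (-0.18, adjusted p = 0.0411, edgeR). In B10.D2, where 4.58% were called, 2 of 8 fell, Prkar2b (-0.23, adjusted p = 0.0179) and Rapgef4, which encodes Epac2 (-0.21, adjusted p = 0.00851). Rapgef4 also fell in rat, where 1 of 5 tested passed and 27.4% of all features were called, from 154 ± 37.7 to 44.9 ± 32.1 CPM (SD, n = 4 each; log2 fold change -1.78, adjusted p = 0.0179, edgeR). The list's median log2 fold change was -0.14 in BALB/c, -0.10 in B10.D2 and -0.36 in rat, against 0.0033, 0.0076 and 0.0026 over all features tested.

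**Figure D5:**
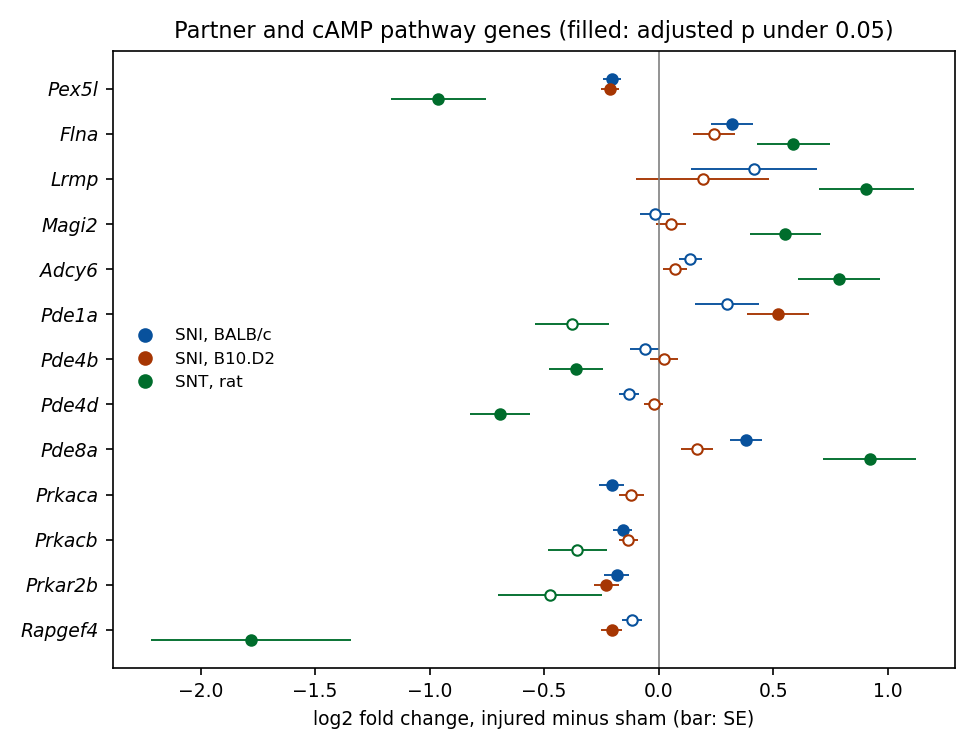
Log2 fold change after injury (horizontal axis, bar: SE) of the 13 genes of the 4 lists that were called in at least 1 of BALB/c, B10.D2 and rat, filled where the adjusted p was under 0.05. Pex5l is filled and below 0 in all 3, and Prkaca has no rat value.

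The genes whose level ran most like that of each member were taken over log2(CPM + 1) of the 20 mouse libraries among 16406 genes, as a description, since all genes share the same libraries. For Hcn2 they were Rap1gap (r = 0.908), Eef1a2 (r = 0.882) and Nat8l (r = 0.876). With group means removed these were 0.860, 0.795 and 0.729. For Hcn3 they were Sema4d (r = 0.917), Chrnb4 (r = 0.897) and Epn2 (r = 0.890), with 0.886, 0.817 and 0.856 once group means were removed. For Hcn4 they were Itga9 (r = 0.877), Tcf12 (r = 0.853) and Plod2 (r = 0.844). With group means removed, the values for Hcn4 were 0.876, 0.878 and 0.841. No member was among the 3 nearest to another: r was -0.06 between Hcn2 and Hcn3, -0.12 between Hcn2 and Hcn4, and 0.22 between Hcn3 and Hcn4. With group means removed the same pairs gave 0.30, 0.13 and 0.35, so that the first 2 changed sign.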

How the data were processed

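RNA sequencing was ribodepleted total RNA in mouse and polyadenylated RNA in rat, in strand-marking libraries. The deposited gene counts were made by the authors with STAR and HTSeq (intersection-nonempty) on mm10 with ENSEMBL 87 and on rn6 with ENSEMBL 90, merged with their assembled LncRNAs. The deposited splice junctions and LncRNA annotation gave positions only, and the authors' tables of fold changes and p-values were not used. Of the 22 mouse samples in the labels, 2 without a column were not analysed here. Counts were tested in R 4.3.3 with edgeR 4.0.16 (TMM, filterByExpr, quasi-likelihood F test, two-sided, Benjamini-Hochberg over all features). The mouse fit held sex, strain, surgery and their interaction, and the rat fit surgery alone; an adjusted p under 0.05 was called. CPM used library totals times TMM factors. Mouse and rat values were normalised separately and differ in RNA selection, so levels are not compared between species. The scripts were tested on simulated data with log2 fold changes of 1 in 200 features. Of these, 97% were recovered in BALB/c, 96.5% in B10.D2 and 74.5% in rat, and 1, 8 and 10 unchanged features were called. With all libraries the members' differences were smaller than the simulated ones, so these rates do not give the recovery of differences of that size. The members and lists were chosen with earlier results of these data known. Named genes are the members, genes of the lists called after injury (up to 8 per list), the 3 most alike per member (of genes averaging 1 CPM or more), and annotated neighbours within 10 kb. Gene positions and sequences came from GENCODE and RefSeq tables of mm10 (GRCm38). Alternatives were DESeq2 1.42.0, its size factors, no filter, at least 10 counts in every library, no sex term, single strains, a replicate block in rat, and leaving out each library. Rat p-values measure the spread between pooled libraries.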

Additional observations from a re-analysis of the deposited data

Results flagged for a closer look

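Hcn2 in B10.D2 SNI library 78 read 20 CPM, with the other 4 libraries of its group at 24.3 to 26.0 CPM. Its gap to the nearest library was 0.717 of the group's range, above Dixon's 95% critical value of 0.71. It was 1 library in 18 combinations of a member and a group, of which chance marks about 1 in 20.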

How the results depend on the processing

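Of 507 alternative values of the members' differences, 469 kept their direction and their side of the threshold. Most of the 507 belong to differences that were not called with all libraries, so this count says little about the called ones. For Hcn2 in BALB/c, 21 alternatives kept the call and 6 lost it. For Hcn4 between the sexes, 12 kept the call and 14 lost it. The injury effect of Hcn2 averaged over both strains passed (-0.33), which is not a test of B10.D2 alone, where Hcn2 passed in 0 of 20 fits that left out a library. Without both rat libraries that stood apart, a choice that widens the gap between groups, Hcn2 passed (-1.03). In rat Hcn3 passed with DESeq2 (0.54) and with no filter on low counts (0.56, adjusted p = 0.05 after rounding). The sex difference of Hcn4 did not pass in sham libraries (0.40) or SNI libraries (0.68) alone. With mean transcript length, Hcn3 read 9.75, 10.4, 10.9 and 12.3 CPM per kb in sham and SNI of BALB/c and in sham and SNI of B10.D2, since its annotated transcripts are short. List genes called in BALB/c went from 6 to 10 and in B10.D2 from 4 to 7 with DESeq2, and in rat from 9 to 16 without both libraries that stood apart.

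Leaving out 1 library at a time gave log2 fold changes of -0.40 to -0.31 for Hcn2 in BALB/c, and in rat -0.87 to -0.29 for Hcn2, 0.45 to 0.76 for Hcn3 and 0.32 to 0.54 for Hcn4. It gave 0.46 to 0.57 for Hcn4 between the sexes, and for Hcn3 between strains 0.14 to 0.25 in sham and 0.17 to 0.29 in SNI. Values near 0 changed sign: Hcn2 between strains in sham (-0.0676 to 0.0841), Hcn4 between strains in SNI (-0.288 to 0.0033), and the interaction of Hcn3 (-0.0137 to 0.107) and Hcn4 (-0.0722 to 0.227). List genes called ranged from 3 to 9 in BALB/c (3 without SNI library 65), 2 to 5 in B10.D2 (2 without SNI library 69 or 90) and 4 to 16 in rat (4 without sham library 3 and 16 without SNT library 1). The cause of these shifts was not tested. Over all features, calls in rat numbered 1483 to 6100 against 3753, in B10.D2 665 to 1461 against 1130, and between the sexes 19 to 246 against 60.

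Rat sham and SNT libraries share numbers in their titles, but same-numbered libraries did not deviate together (r = 0.05, -0.29, -0.11 and -0.09). With a replicate block by that number, Hcn2 was -0.61, Hcn3 0.56 and Hcn4 0.40, none passing, and 6 list genes were called. Depth was at least 29989963 counts in mouse and 11954612 in rat, so that the members had 292 counts or more in every library.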
